A study of Mus musculus with 4 samples.

Results

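The genes described here encode the proteins of the cytosolic ribosome. They were chosen by symbol, as the rows whose name is Rpl or Rps followed by a number and at most 1 of the letters a, x, l or y, and 77 of the 23235 gene symbols in the table met that rule. The rule reads symbols only. Of the 77, 45 are large subunit (Rpl) genes, 31 are small subunit (Rps) genes, and Rpl10l, a paralog known from testis, is kept apart. Ribosomal proteins whose symbols have another form, such as Rplp0, Rpsa and Fau, fall outside the rule and appear only beside the members.

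RNA was sequenced from 4 mouse cultures of the strain 129S4/SvJae, with 1 library each. DKO_NP and WT_NP are ES-derived neural progenitor cells at day 6, made through 4 days as embryoid bodies and 2 days in retinoic acid. DKO_ES and WT_ES are the undifferentiated embryonic stem cells at day 0, grown in serum and LIF after removal from feeder cells. DKO cells lack Dnmt3a and Dnmt3b, the enzymes that set new DNA methylation, and WT cells are the wild-type J1 line. The labels do not say how many DKO clones were used. With 1 library per group there is no replicate spread and no test, so every ratio below compares 2 libraries, and its counting interval, where given, covers counting error only.

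Each ribosome holds 1 copy of nearly every one of these proteins, and their mRNAs are among the most abundant in dividing cells. Many of them begin with a run of pyrimidines, the terminal oligopyrimidine tract, through which growth signals set their translation. A few members have a tissue-restricted paralog: Rpl10l and Rpl39l in male germ cells, where the X-linked parent genes Rpl10 and Rpl39 are silenced during meiosis, and Rpl3l in heart and skeletal muscle. Ribosomal protein mRNAs have also been copied back into the mouse genome many times as processed pseudogenes, which can share every base with their parent.

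The sequences that matter for the values below are those in which a member can or cannot be told from its relatives. Rpl10l, a gene of 1 exon at chr12:66283379-66284401 (GRCm38, minus strand), differs from Rpl10 on chromosome X at 98 of 642 coding bases, and the longest identical stretch is 23 bases, shorter than the 50-cycle reads. The first 90 coding bases of both are shown with their 13 differing bases in capitals.
Rpl10l: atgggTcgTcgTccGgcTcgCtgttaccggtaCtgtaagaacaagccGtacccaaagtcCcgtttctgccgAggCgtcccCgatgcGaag
Rpl10: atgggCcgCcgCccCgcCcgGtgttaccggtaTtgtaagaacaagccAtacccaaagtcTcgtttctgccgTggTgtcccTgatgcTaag
Rpl39l, at chr16:10170226-10174911 (plus strand), differs from Rpl39 on chromosome X at 23 of 153 coding bases, with a longest identical stretch of 38 bases. Its first 90 coding bases hold 10 differences, again in capitals.
Rpl39l: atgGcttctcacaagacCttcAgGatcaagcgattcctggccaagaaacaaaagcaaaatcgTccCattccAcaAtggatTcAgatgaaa
Rpl39: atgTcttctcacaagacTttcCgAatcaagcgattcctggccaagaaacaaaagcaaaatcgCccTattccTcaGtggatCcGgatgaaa

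The opposite case is Rpl26, whose parent gene of 4 exons lies at chr11:68901583-68906989. The table also has a row for Gm15772, a processed pseudogene at chr5:3236431-3236868, which differs from the Rpl26 coding sequence at 2 of 435 bases and shares a stretch of 176 bases with it. Coding bases 147 to 206 hold 1 of these differences, in capitals.
Rpl26: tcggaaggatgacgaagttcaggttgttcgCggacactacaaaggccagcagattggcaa
Gm15772: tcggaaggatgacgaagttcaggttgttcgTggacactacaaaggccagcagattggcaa
Rpl34 (chr3:130726831-130730398) and the pseudogene Rpl34-ps1 (chr6:71124610-71124963) differ at 2 of 351 coding bases. Bases 102 to 161 hold 1 of them.
Rpl34: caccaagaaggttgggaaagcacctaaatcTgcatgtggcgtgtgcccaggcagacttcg
Rpl34-ps1: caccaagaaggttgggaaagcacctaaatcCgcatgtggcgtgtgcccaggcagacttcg
Rpl30 (chr15:34440505-34443640) and Gm12191 (chr11:49678710-49679057) differ at 1 of 345 coding bases, shown at bases 66 to 125.
Rpl30: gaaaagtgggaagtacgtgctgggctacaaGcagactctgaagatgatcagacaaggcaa
Gm12191: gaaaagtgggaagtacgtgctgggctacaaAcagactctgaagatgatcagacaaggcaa
Rps27 (chr3:90212522-90213651) and the row Gm9846, a 1-exon gene listed as Rps27rt in GENCODE (chr9:114982366-114982739), are identical over all 252 coding bases, so no coding read tells them apart.

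Such overlap was the rule among the members. In GENCODE M21 transcripts, 74 of 77 members shared at least 1 coding stretch of 50 bases exactly with another gene, and 30 members shared every such stretch. The median member shared 91.6% of its stretches, and shared at least 1 with a median of 8 pseudogenes, up to 120 for Rpl7a. Rpl39l and Rpl3l were among those that shared none. Rpl10l shared 12.5%, with a single pseudogene and not with Rpl10. Rows for such copies, sharing at least 30% of the stretches, existed in the table for 10 members.

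All members were detected in every library, and 75 of 77 stood at 1 FPKM (read number corrected for gene length and library depth) or more in all 4. The median member stood at 1308 FPKM in DKO_NP and 921 FPKM in WT_NP, and at 2453 FPKM in DKO_ES and 2367 FPKM in WT_ES, against medians of 11.5, 8.96, 14.7 and 15.4 FPKM over all genes at 1 FPKM or more in the same order of libraries. Small subunit genes had higher medians than large subunit genes in each library: 1630 and 1254 FPKM in DKO_NP, 1099 and 888 FPKM in WT_NP, 2990 and 2327 FPKM in DKO_ES, and 2515 and 2236 FPKM in WT_ES. FPKM corrects for gene length, but levels of single members also rest on how reads were placed among near-identical copies. In bulk RNA, fewer cells expressing a gene and less of its RNA per cell cannot be told apart.

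Rpl41, the smallest ribosomal protein, was the highest member in every library, at 5066 FPKM in DKO_NP, 3226 FPKM in WT_NP, 8901 FPKM in DKO_ES and 7084 FPKM in WT_ES. Rpl38, a large subunit protein tied to translation of Hox mRNAs in mouse embryos, came next by mean level, followed by the small subunit genes Rps28, Rps12, Rps18 and Rps20, whose means over the libraries ran from 4275 to 3820 FPKM. The 6 lowest by mean were Rpl3l (0.812 FPKM), Rpl39l (48.4), Rpl30 (61.0), Rpl10l (62.6), Rps15a (84.3) and Rps27 (165 FPKM). Rpl3l, Rpl39l and Rpl10l are tissue-restricted paralogs. Rpl30, Rps15a and Rps27 encode proteins of every ribosome, and for each the table holds a near-identical row described below.

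**Figure D1:**
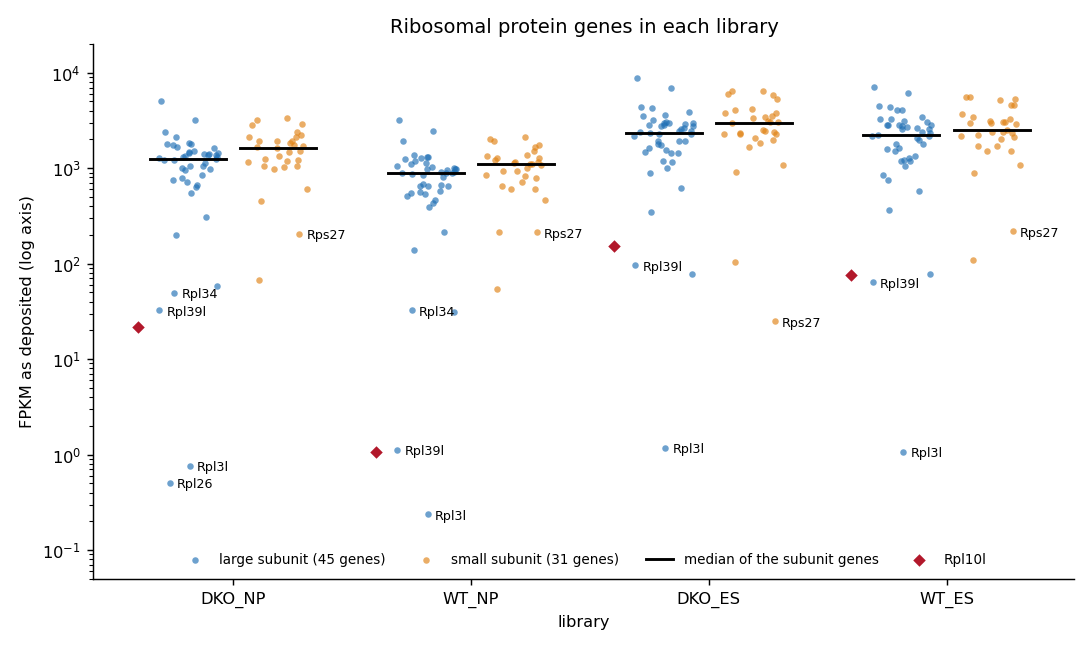
FPKM as deposited (log axis) of 77 ribosomal protein genes in each of the 4 libraries; dots are genes, bars the medians of 45 large and 31 small subunit genes, diamonds Rpl10l. Most genes form a band around the medians in every library, while Rpl26 drops to 0.508 FPKM in DKO_NP alone, Rps27 to 24.8 FPKM in DKO_ES alone, and Rpl10l and Rpl39l to 1.06 and 1.13 FPKM in WT_NP.

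Members held 5.32% of the summed FPKM in DKO_NP, 2.25% in WT_NP, 4.85% in DKO_ES and 5.40% in WT_ES. These shares rest on small RNAs, unnamed models and genes under 200 bases, which held 76.2% to 90.1% of the sums. Among named genes of 200 bases or more, members held 22.4% in DKO_NP and 22.8% in WT_NP, and 26.1% in DKO_ES and 24.6% in WT_ES. On that base the NP libraries were below the ES libraries and the genotypes lay within 2 percentage points of each other. Large subunit genes made up 52.5% to 54.8% of the members' sum in the 4 libraries.

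Whether the genotype or the differentiation moved these genes as a group was read from log2 ratios of median-scaled FPKM plus 1, for genes at 1 FPKM or more in 1 library of the pair, with 2-fold as the size counted. In neural progenitors, 62 of 76 members were higher in DKO_NP than in WT_NP (51% of all 13601 genes were), with a median log2 ratio of 0.10. At 2-fold, 2 members were higher, Rpl39l and Rpl10l (4.76% of all genes), and 1 lower, Rpl26 (7.99% of all genes). The 713 other protein-coding genes of mean 100 FPKM or more had a higher median, 0.36, than the members. They were picked by mean FPKM as deposited over these same libraries, which enter that mean unequally. Genes at 100 FPKM or more numbered 787 in DKO_NP, 548 in WT_NP, 1297 in DKO_ES and 1328 in WT_ES. The choice favours genes high in the libraries that weigh most, so the members' place against this set partly rests on it. Large and small subunit genes were alike, with medians of 0.08 and 0.12.

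The next members in this comparison differed by less than 2-fold. Rps27l, a paralog of Rps27 known as a p53 target, stood at 448 FPKM in DKO_NP and 216 FPKM in WT_NP (log2 ratio 0.61). Rpl30 (0.43) and Rpl39 (0.43), which lies at the exit tunnel of the large subunit, followed. The lowest after Rpl26 were Rps27 (-0.50), Rpl13 (-0.41), Rpl17 (-0.17) and Rpl23a (-0.12). Without the 5 members whose levels spread most over the libraries, the 71 members at 1 FPKM or more ran from -0.41 to 0.61.

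Cell type markers also differed between the 2 NP libraries, though cell makeup itself was not measured. Summed FPKM of 3 erythroid markers was 72.9 in DKO_NP and 763 in WT_NP, of 5 endoderm markers 18.4 and 81.0, and of 3 mesoderm markers 7.55 and 55.1, while 5 neural progenitor markers summed to 160 in DKO_NP and 40.4 in WT_NP. Pou5f1, Nanog and 3 other ES cell markers summed to 137 FPKM in DKO_NP and 34.6 FPKM in WT_NP, against 2502 FPKM in DKO_ES and 2388 FPKM in WT_ES. Of 4 fibroblast markers, read because the stem cells had been on feeder cells, the sum was 18.4 FPKM in DKO_NP and 38.4 FPKM in WT_NP, and 6.47 FPKM in DKO_ES and 19.9 FPKM in WT_ES. Markers within a set were not all alike. For DKO_NP over WT_NP, 3 endoderm markers were at least 2-fold lower (7.99% of all genes were). Sox17 and Afp had log2 ratios of -0.04 and -0.27 there. Of the fibroblast markers, Col3a1 (-3.25) and Col1a1 (-1.55) were lower there, Thy1 had -0.06, and Col1a2 (0.43) was higher. In ES cells Thy1 (0.11) was the 1 fibroblast marker not lower in DKO_ES. The part of these cell types in the members' ratios was not tested. Dnmt3a stood at 4.14 FPKM in DKO_NP and 17.2 FPKM in WT_NP, and at 12.3 FPKM in DKO_ES and 35.3 FPKM in WT_ES, and Dnmt3b at 5.22 and 9.98 FPKM and at 13.9 and 140 FPKM in the same order. Which exons the deletion removed is not given in the sources used here, so residual FPKM does not check the labels.

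In stem cells, 67 of 77 members were higher in DKO_ES than in WT_ES (51.5% of all 13596 genes were), with a median of 0.16 against 0.04 for the 713 other abundant coding genes. Rpl10l was the 1 member at least 2-fold higher (2.56% of all genes) and Rps27 the 1 lower (1.15% of all genes). Rpl26 (0.87), Rpl39l (0.65), Rps23 (0.55), which sits at the decoding centre, and Rps21 (0.50) were next highest. Rps23 stood at 2342 FPKM in DKO_ES and 1690 FPKM in WT_ES, and Rps21 at 4187 FPKM in DKO_ES and 3111 FPKM in WT_ES. After Rps27 the lowest were Rpl13 (-0.74), Rpl28 (-0.22), Rps2 (-0.18) and Rpl8 (-0.14). The medians of large and small subunit genes were 0.15 and 0.17.

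Rpl13 stood apart among members not marked as unstable. It had 2289 FPKM in DKO_ES and 4023 FPKM in WT_ES, a scaled ratio of 0.599 (95% counting interval 0.590 to 0.609), and 1307 FPKM in DKO_NP and 1282 FPKM in WT_NP, a scaled ratio of 0.753 (0.741 to 0.765). It was thus below the median member in both genotype comparisons. Every coding stretch of Rpl13 is also found in at least 1 of 15 pseudogenes, none of which has a row in the table.

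**Figure D2:**
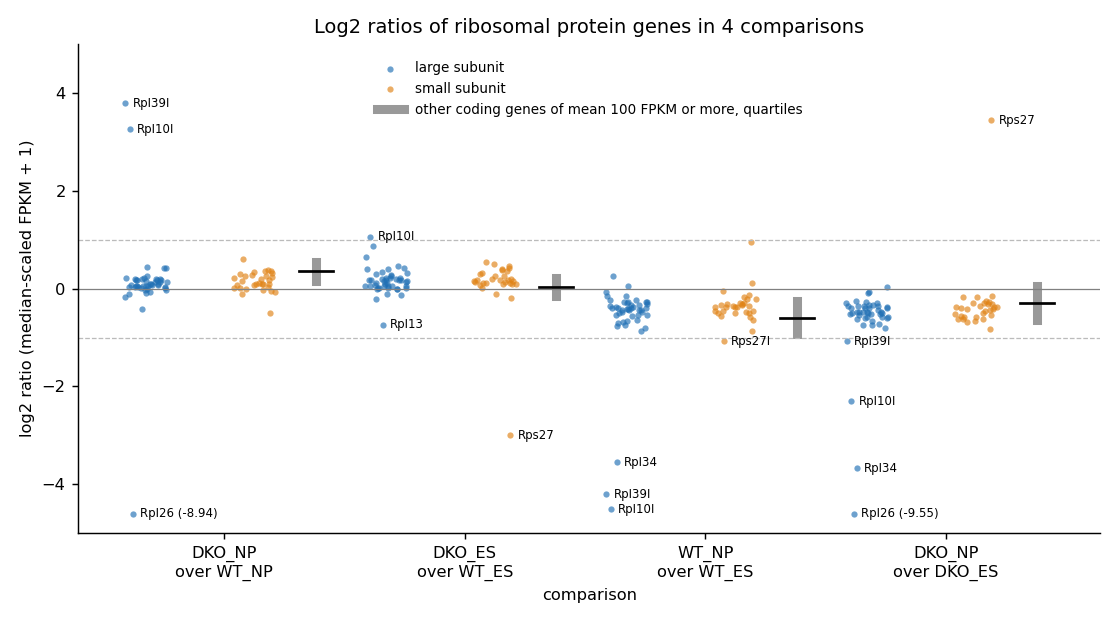
Log2 ratios (median-scaled FPKM + 1) of the members in 4 comparisons, with large and small subunit genes as dots and the quartiles and median of 713 other coding genes of mean 100 FPKM or more as grey bars; dashed lines mark 2-fold, and Rpl26 is drawn at the edge with its value. Members form narrow clouds near 0 in the genotype comparisons and near -0.4 in the differentiation comparisons, and the few genes outside them are named.

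Differentiation gave lower values for nearly all members. In wild type, 73 of 77 were lower in WT_NP than in WT_ES (49.4% of all 14086 genes were), with a median log2 ratio of -0.40. In the knockout, 75 of 77 were lower in DKO_NP than in DKO_ES (51.3% of all 14050 genes), with a median of -0.47. These 2 comparisons share no library, but each shares a library with each genotype comparison. Few members reached 2-fold: 0 higher (16.2% of all genes) and 4 lower (11.3% of all genes) in wild type, and 1 higher (11.8% of all genes) and 4 lower (11.2% of all genes) in the knockout.

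The 713 other abundant coding genes also had medians below 0, of -0.60 in wild type and -0.29 in the knockout. The median member therefore stood above the median abundant gene in wild type, where 65.8% of these genes were below it, and under it in the knockout, where 37.4% were. These genes were picked by mean FPKM over the same libraries, in which ES values weigh most, so these positions partly rest on that choice. The spread among members was narrow. Without the 5 unstable ones, the range between the quartiles was 0.20 log2 units among members in wild type and 0.23 in the knockout, against 0.68 and 0.70 among the other abundant genes. Those 5 were left out by their spread over these same libraries, and the other genes were not trimmed that way. With all 77 members, the quartiles were -0.53 and -0.30 in wild type and -0.57 and -0.34 in the knockout. Those of the other abundant genes were -0.93 and -0.26, and -0.65 and 0.05.

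In wild type the lowest members were Rpl10l (-4.51), Rpl39l (-4.21), Rpl34 (-3.54), Rps27l (-1.07) and Rpl8 (-0.86), and among the highest were Rps27 (0.94), Rpl26 (0.25), Rps19 (0.11) and Rps15a (-0.04). Rps19, the gene most often mutated in Diamond-Blackfan anaemia, had 1154 FPKM in WT_NP and 2107 FPKM in WT_ES, and 1506 FPKM in DKO_NP and 2293 FPKM in DKO_ES. In the knockout the lowest were Rpl26 (-9.55), Rpl34 (-3.67), Rpl10l (-2.30), Rpl39l (-1.07) and Rps29 (-0.82), and among the highest were Rps27 (3.44), Rpl30 (0.04), Rps19 (-0.14) and Rps10 (-0.17). Rps27 and Rps19 were thus among the 5 highest in both.

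The genotype dependence of the differentiation ratio, DKO minus WT, had a median of -0.07 over the 77 members, and 4 members reached a size of 1 (13.1% of all genes did). These were Rpl39l (3.13), Rps27 (2.50), Rpl10l (2.20) and Rpl26 (-9.81). Among the other members it ran up to 0.55 for Rps2, a small subunit protein near the mRNA channel, with 2236 FPKM in DKO_NP, 1283 FPKM in WT_NP, 3821 FPKM in DKO_ES and 4570 FPKM in WT_ES. It ran down to -0.39 for Rpl37a.

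The scaling moves every gene of a library alike, so members are read against all genes. As deposited, without scaling, the medians were 0.53 for DKO_NP over WT_NP, 0.09 for DKO_ES over WT_ES, -1.37 for WT_NP over WT_ES and -0.93 for DKO_NP over DKO_ES, beside 0.39, -0.06, -0.82 and -0.43 for all genes. With libraries scaled to equal sums of FPKM, sums that small RNAs make up for the most part, the members' median turned to -0.15 for DKO_ES over WT_ES, beside -0.27 for all genes, and to 0.15 for DKO_NP over DKO_ES, beside 0.53 for all genes. The median member thus stayed on the same side of the median gene in these pairs.

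Of the 77 members, 5 had a highest scaled level at least 4 times the lowest: Rpl26 (2090-fold), Rpl10l (76.6-fold), Rpl39l (45.7-fold), Rps27 (16.1-fold) and Rpl34 (14.6-fold). Rpl34 was the nearest inside that limit, and Rpl3l (2.68-fold) and Rpl39 (2.34-fold) the nearest outside it. These 5 fall into 2 kinds. Rpl26, Rps27 and Rpl34 have a near-identical row in the table, and Rpl10l and Rpl39l share few or no coding stretches of read length with another gene. Bases outside the coding sequence, which for Rpl39l is 153 of 805 mRNA bases, were not compared. Over all 77 members, the percent of coding stretches shared had a Spearman correlation of -0.04 with the highest-to-lowest ratio.

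Rpl26, which binds at the exit of the peptide tunnel, stood at 0.508 FPKM in DKO_NP and 513 FPKM in WT_NP, and at 1465 FPKM in DKO_ES and 846 FPKM in WT_ES. The DKO_NP value corresponds to about 7 reads, against about 9969 in WT_NP, 11760 in DKO_ES and 6247 in WT_ES. Gm15772 stood at 2490 FPKM in DKO_NP, 1308 FPKM in WT_NP, 3605 FPKM in DKO_ES and 3697 FPKM in WT_ES, above Rpl26 in each. The summed rows gave log2 ratios of 0.01 for DKO_NP over WT_NP, 0.23 for DKO_ES over WT_ES, -0.34 for WT_NP over WT_ES and -0.56 for DKO_NP over DKO_ES, and a highest-to-lowest ratio of 1.49. Rpl26 held 0.0204% of the sum in DKO_NP, 28.2% in WT_NP, 28.9% in DKO_ES and 18.6% in WT_ES.

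Rps27, a zinc-finger protein of the small subunit, stood at 204 FPKM in DKO_NP, 213 FPKM in WT_NP, 24.8 FPKM in DKO_ES and 217 FPKM in WT_ES. DKO_ES was the low library, 8.32-fold below WT_ES (counting interval 6.91 to 10.03). Gm9846 stood at 3134 FPKM in DKO_NP, 2353 FPKM in WT_NP, 5792 FPKM in DKO_ES and 5279 FPKM in WT_ES, so that Rps27 held 0.426% to 8.31% of the sum. The summed rows spread 1.26-fold over the libraries, with log2 ratios of -0.06 and 0.16 for the knockout over the wild type in NP and ES cells.

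Rpl34 was low in both NP libraries, at 49.5 FPKM in DKO_NP and 32.4 FPKM in WT_NP, against 884 FPKM in DKO_ES and 758 FPKM in WT_ES. Rpl34-ps1 stood at 1460 FPKM in DKO_NP, 1074 FPKM in WT_NP, 1967 FPKM in DKO_ES and 1995 FPKM in WT_ES. Their sum spread 1.38-fold, and its differentiation ratios were -0.34 in wild type and -0.45 in the knockout, close to the medians of all members.

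Rpl30 and Rps15a, both low by mean and not unstable, also have copy rows. Rpl30 held only 2.24% to 3.84% of its sum with Gm12191, which stood at 1446 FPKM in DKO_NP, 952 FPKM in WT_NP, 3367 FPKM in DKO_ES and 2600 FPKM in WT_ES. Rps15a held 32.4% to 44.0% of its sum with Gm11968 and Gm13253, but that sum was itself low, at 178 FPKM in DKO_NP, 124 FPKM in WT_NP, 325 FPKM in DKO_ES and 274 FPKM in WT_ES. With copy rows added, a choice made after seeing the values, no member was at least 2-fold lower in either genotype comparison. Of all genes, 7.99% were in NP and 1.15% in ES cells. At 2-fold, the sums left Rpl39l and Rpl10l higher in DKO_NP than in WT_NP (4.76% of all genes). In stem cells they left Rpl10l higher in DKO_ES than in WT_ES (2.56% of all genes). How the submitters' processing placed reads that match both rows is not given in the sources used here, and its part was not tested.

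**Figure D3:**
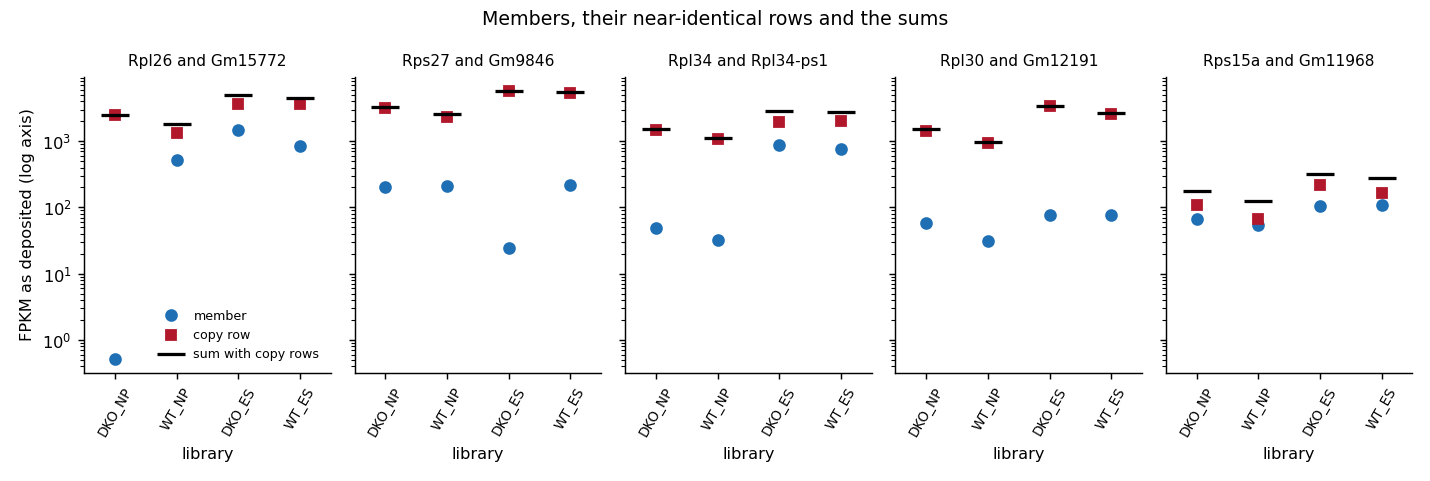
FPKM as deposited (log axis) of 5 members (dots), a near-identical row (squares) and the sum of all their rows (bars; for Rps15a it includes Gm13253) in each library. Rpl26 in DKO_NP, Rps27 in DKO_ES and Rpl34 in both NP libraries fall further below their copies than they do elsewhere. Rps27 and Rpl30 lie far below their copies in every library, at no more than 8.31% and 3.84% of their sums. The sums stay within 1.88-fold of each other after scaling.

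Rpl10l stood at 21.6 FPKM in DKO_NP and 1.06 FPKM in WT_NP, and at 152 FPKM in DKO_ES and 76.1 FPKM in WT_ES. WT_NP was the low library and DKO_ES the high one. After scaling it was 15.0-fold higher in DKO_NP than in WT_NP (counting interval 10.9 to 21.3, from about 563 and 40 reads) and 2.10-fold higher in DKO_ES than in WT_ES (1.96 to 2.26). It was 36.4-fold lower in WT_NP than in WT_ES (26.6 to 51.4) and 5.10-fold lower in DKO_NP than in DKO_ES (4.65 to 5.60). Rpl10, which joins the large subunit late, near its catalytic centre, stood at 1489, 983, 2862 and 2575 FPKM in DKO_NP, WT_NP, DKO_ES and WT_ES. Rpl10l thus made up 1.43% of the summed pair in DKO_NP and 0.108% in WT_NP, and 5.04% in DKO_ES and 2.87% in WT_ES.

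Rpl39l had the same order of libraries, at 32.6 FPKM in DKO_NP and 1.13 FPKM in WT_NP, and 96.0 FPKM in DKO_ES and 63.9 FPKM in WT_ES. It was 21.4-fold higher in DKO_NP than in WT_NP (15.3 to 31.8) and 1.58-fold higher in DKO_ES than in WT_ES (1.44 to 1.74). It was 28.9-fold lower in WT_NP than in WT_ES (20.6 to 42.8) but 2.14-fold lower in DKO_NP than in DKO_ES (1.94 to 2.35). Its share of the pair with Rpl39 was 1.96% in DKO_NP and 0.125% in WT_NP, and 2.39% in DKO_ES and 2.05% in WT_ES. Both paralogs were therefore detected in wild-type stem cells, at levels far below their X-linked partners, and both were near 1 FPKM in wild-type progenitors alone.

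Markers of germ cells moved the same way between the NP libraries. Dazl, Ddx4, Mael and Sohlh2 summed to 126 FPKM in DKO_NP and 3.34 FPKM in WT_NP. All 4 were at least 2-fold higher in DKO_NP (4.76% of all genes were). They summed to 90.01 FPKM in DKO_ES and 80.9 FPKM in WT_ES. Of the 4, only Dazl was at least 2-fold higher in DKO_ES (2.56% of all genes were). All 4 were at least 2-fold lower in WT_NP than in WT_ES (11.3% of all genes were). Between DKO_NP and DKO_ES they were split, with Mael (-1.09) and Ddx4 (-0.75) lower in DKO_NP, as both paralogs were, and Dazl (1.74) and Sohlh2 (1.74) higher. Of the 5 ES cell markers given above, 4 were also at least 2-fold higher in DKO_NP than in WT_NP (4.76% of all genes). Their part in the paralogs' values was not tested.

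Among the other paralogs, Rpl3l and Rps4l were also lowest in WT_NP after scaling. That order was not particular to them, since Rps27l and the partner genes Rpl10, Rpl39, Rpl3 and Rps4x were lowest in WT_NP too. Rpl3l stood at 0.761 FPKM in DKO_NP, 0.237 FPKM in WT_NP, 1.19 FPKM in DKO_ES and 1.07 FPKM in WT_ES, with 12 to 27 approximate reads. It was 2.37-fold higher in DKO_NP than in WT_NP (1.18 to 5.21) and 2.28-fold lower in WT_NP than in WT_ES (1.10 to 5.22), with its partner Rpl3 at 1451, 981, 2975 and 2820 FPKM. Rps4l, a relative of Rps4x that GENCODE lists as a transcribed processed pseudogene and the table under the symbol Rps4y2, lies outside the rule and stood at 151 FPKM in DKO_NP and 46.6 FPKM in WT_NP, and at 443 FPKM in DKO_ES and 547 FPKM in WT_ES. It was 2.40-fold higher in DKO_NP than in WT_NP (2.25 to 2.56) and 0.853 times its WT_ES level in DKO_ES (0.823 to 0.886). It was 5.97-fold lower in WT_NP than in WT_ES (5.63 to 6.33) and 2.12-fold lower in DKO_NP than in DKO_ES (2.03 to 2.22). Rpl22l1, a paralog that can replace Rpl22, was 2.00-fold higher in DKO_ES than in WT_ES (1.89 to 2.11), at 459 and 242 FPKM, and made up 39.9% to 57.1% of its pair. Rpl36al made up 21.2% to 30.97% of its pair with the X-linked Rpl36a. Rpl22l1 shared 84.2% and Rpl36al 100% of their 50-base coding stretches with another gene. The counting intervals do not cover how such reads were placed, and its part in these values was not tested. Rps27l made up 7.78% to 14.0% of its sum with Rps27 and Gm9846, lowest in WT_NP.

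**Figure D4:**
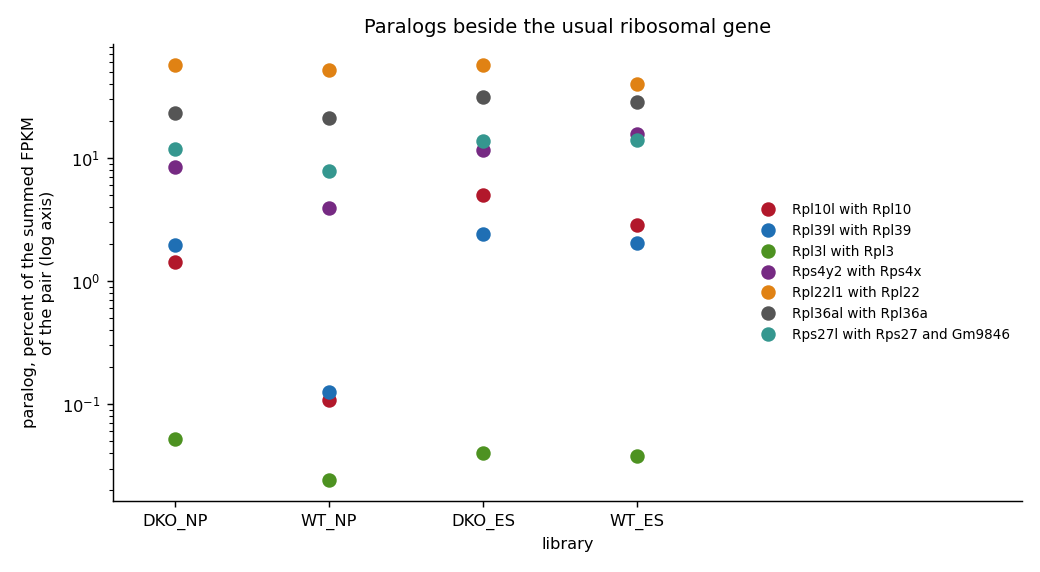
Share of each paralog in the summed FPKM of the paralog and its usual gene, in percent on a log axis, in each library. Rpl10l and Rpl39l fall to 0.108% and 0.125% in WT_NP and lie between 1.43% and 5.04% in the other 3 libraries, while Rpl22l1 and Rpl36al keep between 21.2% and 57.1% throughout.

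The 4 members on chromosome X, Rpl10, Rpl36a, Rpl39 and Rps4x, were all higher in the knockout, with medians of 0.11 in NP and 0.24 in ES cells against 0.10 and 0.14 for 67 and 68 autosomal members without the unstable ones. Of these autosomal members, 82.1% in NP and 86.8% in ES cells were higher in the knockout too. All 4 on chromosome X were lower in NP than in ES cells in both genotypes, as were 97.1% of the autosomal members in wild type and 98.5% in the knockout. Rpl39 had the largest differentiation values of the 4, -0.80 in wild type and -0.80 in the knockout.

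The promoters of Rpl10l and Rpl39l are shown because DNA methylation acts at CG dinucleotides, here in capitals, and the cells compared differ in the enzymes that set it; no methylation was measured in these libraries. The 250 bases before the RefSeq start (GRCm38.p6) hold 8 CG in Rpl10l (chr12:66284402-66284651, minus strand), 12 in Rpl39l (chr16:10169978-10170227, plus strand) and 13 in Rpl10 (chrX:74270566-74270815, plus strand).
Rpl10l: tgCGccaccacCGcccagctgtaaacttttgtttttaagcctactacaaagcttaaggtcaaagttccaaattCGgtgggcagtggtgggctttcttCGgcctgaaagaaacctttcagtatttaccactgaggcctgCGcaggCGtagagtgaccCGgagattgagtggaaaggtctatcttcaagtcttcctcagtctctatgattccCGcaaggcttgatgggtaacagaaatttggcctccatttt
Rpl39l: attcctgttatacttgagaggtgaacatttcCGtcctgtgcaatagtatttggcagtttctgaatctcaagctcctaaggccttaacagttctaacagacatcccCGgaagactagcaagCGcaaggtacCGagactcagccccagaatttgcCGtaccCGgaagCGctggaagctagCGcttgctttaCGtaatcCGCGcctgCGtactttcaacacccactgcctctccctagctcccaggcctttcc
Rpl10: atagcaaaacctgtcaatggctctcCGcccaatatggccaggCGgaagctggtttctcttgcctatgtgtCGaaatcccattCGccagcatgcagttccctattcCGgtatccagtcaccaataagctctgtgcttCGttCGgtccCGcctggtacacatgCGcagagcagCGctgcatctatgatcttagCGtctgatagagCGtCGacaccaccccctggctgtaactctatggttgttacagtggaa
Over the 58 members matched by symbol in the RefSeq promoter table, the median promoter held 16 CG, against 6 over all 27025 genes of that table. Rpl3l held 2, the fewest of the 58, and Rpl9 the most, 31. The ratio of observed to expected CG was 0.81 for the median member, 0.56 for Rpl10l, 0.75 for Rpl39l and 0.38 for the median gene.

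The pyrimidine tract at the start can be seen in the 3 members with the highest mean FPKM among those of the 58 matched with a run of at least 6 C or T in the window from 20 bases before to 10 after the RefSeq start. The windows lie at chr11:114668560-114668589 (plus strand), chr17:33955656-33955685 (minus strand) and chr2:32961692-32961721 (plus strand), with the longest run in capitals.
Rpl38: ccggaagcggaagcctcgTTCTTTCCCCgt
Rps18: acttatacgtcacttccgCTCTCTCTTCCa
Rpl12: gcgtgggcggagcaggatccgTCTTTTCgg
Such a run was found in 35 of 58 members (60.3%) and in 30.3% of all genes, read on the gene's own strand. Among 66 mitochondrial ribosomal protein genes it was found in 24 (36.4%). Rpl41, Rps28 and Rps12, also among the highest members by mean, had no such run in this window, with longest runs of 3, 4 and 2 bases. Only the first listed start of each gene was read, so a run at another start would be missed. The 19 members without a matched promoter were not read. The motif CCGGAAG, on either strand of the 250 bases, was found in 17 of 58 members (29.3%) and in 7.05% of all genes. These are matches of letters and not measured sites.

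Shorter members tended to have higher genotype ratios in stem cells. Over the 72 members without the unstable ones, the log2 ratio of DKO_ES over WT_ES had a Spearman correlation of -0.36 with log2 coding length, across genes that share the same 2 libraries. The 8 members under 300 coding bases, such as Rpl41, Rpl39, Rps29 and Rps28, had a median of 0.41, against 0.26 for 51 other coding genes of that length and of mean 100 FPKM or more. The 26 members of 500 to 1000 bases had 0.11, against -0.01 for 188 such genes. For DKO_NP over WT_NP the correlation over the members was 0.00. Over 10750 coding genes at 1 FPKM or more in every library both correlations were below 0. They were -0.07 for DKO_ES over WT_ES and -0.21 for DKO_NP over WT_NP, so the NP comparison had the larger size. Fragment size and the length correction within FPKM act on short genes, and their part was not tested.

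**Figure D5:**
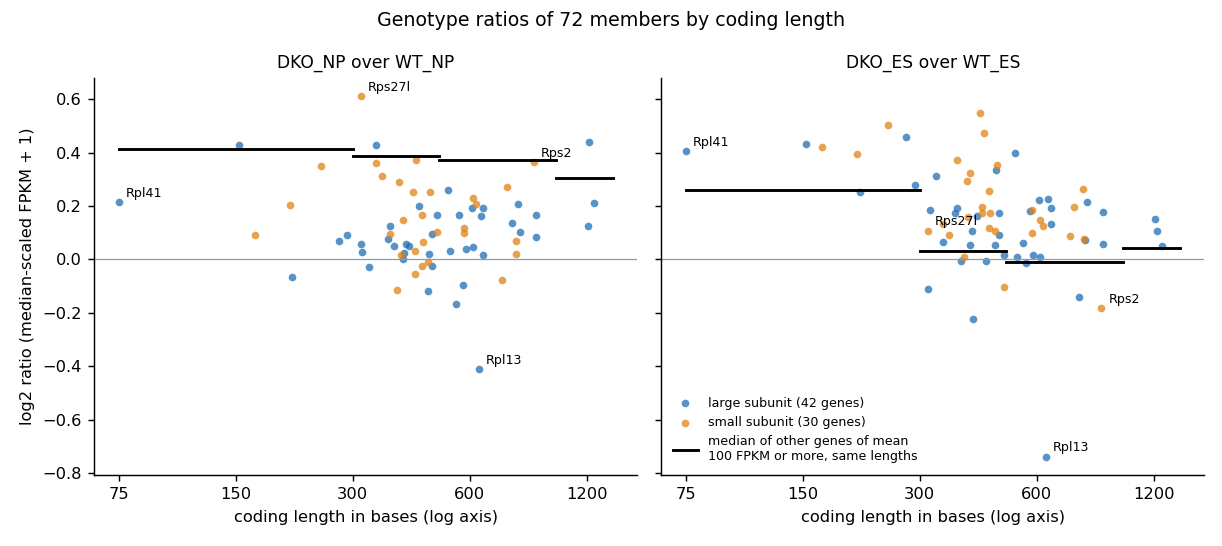
Log2 ratios (median-scaled FPKM + 1) of the 72 members without the 5 unstable ones, Rpl3l included, against coding length in bases on a log axis, in NP cells (left) and ES cells (right); black lines are medians of other coding genes of mean 100 FPKM or more in the same length range. In ES cells the shortest members sit near 0.4 and Rpl13 lies lowest at -0.74, while in NP cells no such slope is seen.

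Other genes of the translation machinery were read beside the members. The 10 ribosome genes outside the rule had medians of 0.21 for DKO_NP over WT_NP, 0.18 for DKO_ES over WT_ES, -0.56 for WT_NP over WT_ES and -0.44 for DKO_NP over DKO_ES. Among them Rplp2, an acidic stalk protein, was lower in DKO_ES (2073 FPKM) than in WT_ES (2913 FPKM), with a log2 ratio of -0.42, while its partner Rplp1 had 0.22. The 26 ribosome biogenesis genes were all lower in NP than in ES cells in both genotypes (49.4% and 51.3% of all genes were), with medians of -0.88 in wild type and -0.54 in the knockout. At 2-fold, 8 of them were lower in wild type (11.3% of all genes) and 3 in the knockout (11.2% of all genes). Nucleolar helicase Ddx21 was the 1 gene of that list at least 2-fold higher in DKO_NP (74.1 FPKM) than in WT_NP (25.5 FPKM), beside 4.76% of all genes. In that comparison 25 of 26 were above 0 (51% of all genes were), with a median of 0.45.

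RNA polymerase I genes, which transcribe the rRNA precursor, had medians of -0.62 in wild type and -0.46 in the knockout over the 13 of 14 that passed the filter, and Rrn3, which recruits the polymerase, was lowest in both (-1.61 and -1.32). The 76 mitochondrial ribosomal proteins, a separate set of genes, had -0.57 and -0.39, with 70 and 61 of them below 0 (49.4% and 51.3% of all genes were), and 0.29 and 0.14 for the knockout over the wild type in NP and ES cells. The 14 translation factors, of which 13 passed the filter in the knockout pair, had -0.47 and -0.36, and their most abundant gene, Eef1a1, stood at 6480 FPKM in DKO_NP, 4187 FPKM in WT_NP, 10916 FPKM in DKO_ES and 10639 FPKM in WT_ES. In DKO_NP over WT_NP the biogenesis median of 0.45 was above the members' 0.10, and in WT_NP over WT_ES its -0.88 was below their -0.40.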

How the data were processed

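The 4 libraries were rRNA-depleted and read single-end for 50 cycles, per the labels' protocols. The values the authors deposited are FPKM per gene symbol (18 blank rows left out). Bowtie, TopHat and mm9 are named in the submitters' processing notes. The sources used here name no program for FPKM and no rule for reads with several matches. Libraries were scaled by median-of-ratios factors (0.908 in DKO_NP, 0.671 in WT_NP, 1.25 in DKO_ES and 1.32 in WT_ES), from 11334 genes at 1 FPKM or more in all. Ratios used a pseudocount of 1 FPKM, which understates low genes. Folds of single genes used none. No test was possible.

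Steps between low FPKM values gave depths of about 25.5, 36.9, 15.3 and 14.0 M reads in DKO_NP, WT_NP, DKO_ES and WT_ES, but only 64.4% of 3410 genes gave whole reads (within 0.04 read), so read numbers are rough. Exact (Clopper-Pearson) 95% intervals use them, with GENCODE M21 lengths. Coordinates are of GRCm38, not mm9. Coding sequences were compared in 50-base stretches and with BLAST+ 2.17.0. The ratios were checked on simulated data. Members, lists and comparisons were chosen with earlier results of these data known. Named are the unstable members, the 5 highest and 5 lowest per comparison, the 6 highest and lowest by mean, paralogs and members on chromosome X, plus examples chosen after their values were seen. Some genes that this rule takes in are not reported here.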

Additional observations from a re-analysis of the deposited data

Results flagged for a closer look

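Rpl26 differed between groups under the same contrast. Its log2 ratio was -8.94 for DKO_NP over WT_NP and 0.87 for DKO_ES over WT_ES, and -9.55 for DKO_NP over DKO_ES and 0.25 for WT_NP over WT_ES. The single DKO_NP library sets both low values, and with 1 library per group the difference was not tested. With the Gm15772 row added, the same ratios were 0.01, 0.23, -0.56 and -0.34.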

How the results depend on the processing

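No paired analysis was possible because each group has 1 library, and for the same reason no library could be left out. Other scalings move every gene of a library alike, so each count of members stands beside the share of all genes. With libraries scaled to equal sums, members' medians turned sign to -0.15 for DKO_ES over WT_ES and 0.15 for DKO_NP over DKO_ES (all genes -0.27 and 0.53). That scaling gave 1.23 for DKO_NP over WT_NP, with 72 members at least 2-fold higher (51.9% of all genes), -1.24 for WT_NP over WT_ES, with 68 lower (35.6%), and 0 higher (1.81%) and 2 lower (2.46%) for DKO_ES over WT_ES. As deposited, medians were 0.53 for DKO_NP over WT_NP, -1.37 for WT_NP over WT_ES, with 72 members lower (41.7%), and -0.93 for DKO_NP over DKO_ES, with 25 lower (21.8%). For DKO_ES over WT_ES 0 were then higher (2.62%). Equal upper quartiles gave 1 member higher for WT_NP over WT_ES (17.6%). Counted at 1.5-fold, 3 members were higher (6.99%) and 2 lower (4.38%) for DKO_ES over WT_ES, 1 higher (26.9%) and 14 lower (23.1%) for WT_NP over WT_ES, and 19 lower (22.3%) for DKO_NP over DKO_ES. Leaving out the 5 unstable members, which were chosen by their spread over these libraries, removes 2-fold members by construction. Then 1 was left lower for WT_NP over WT_ES (11.3% of all genes) and 0 elsewhere (1.15% to 16.2% of all genes). With copy rows added, chosen after seeing the data, 0 members were lower in either genotype comparison (7.99% of all genes in NP and 1.15% in ES cells). For DKO_NP over DKO_ES 0 were then higher (11.8%) and 2 lower (11.2%). Shares of summed FPKM were 22.4% in DKO_NP, 22.8% in WT_NP, 26.1% in DKO_ES and 24.6% in WT_ES without small RNA, unnamed and short genes. Of the other alternatives for these medians, counts and shares, 77 kept their direction and stayed within 0.1 log2 units of the median, 1.5 times the count or 10% of the share. Depth limits Rpl3l and the low values of Rpl10l, Rpl39l and Rpl26, and single libraries limit every comparison.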
